A study of Mus musculus with 90 samples.

Results

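The potassium channel genes were taken as all rows of the expression table whose Entrez identifier maps to a mouse symbol beginning with Kcn and a further letter, which gave 94 of 20414 genes. They comprise the pore-forming subunits of the voltage-gated, calcium- or sodium-activated, inwardly rectifying and leak channels, the auxiliary subunits that carry Kcn symbols, and the regulator Kcnrg. A further 4 symbols that match in RefSeq belong to long non-coding RNAs and were not analysed here. RNA was sequenced from 15 tissues of female mice, labelled as C57BL/6 and 10 weeks old, that were in estrus or in diestrus by the cells seen in vaginal smears. The methods of the study name the substrain C57BL/6J and give a younger age. Each tissue and phase has 3 libraries, 90 in all, and no treatment or allele separates the animals. The study took the tissues from mice killed in triplicate at each phase, so libraries of different tissues share mice, but the labels do not say which. The comparisons ask in which tissues each channel gene is expressed and whether its level differs between estrus and diestrus within a tissue. All levels are FPKM, fragments scaled to transcript length and to the fragments mapped in the library, so they can be compared between genes. Their sum over all genes ran from 353706 in cerebrum diestrus replicate 1 to 623534 in stomach estrus replicate 2. Levels of different tissues are therefore not on 1 common scale. BAT and WAT denote brown and white adipose tissue.

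Some libraries stood apart. Results that rest on them are given with and without them for some values, and with the library named for others. Fold changes between tissues come from fits that hold these libraries, unless a fit without a library is named. The depth of 89 libraries, approximated from the smallest steps of short genes, was 6.62 to 18 M reads (M for mega), but that of BAT estrus replicate 3 was 0.0778 M. This BAT library listed 84 of the 94 members at 0, against 25 to 29 in the other BAT libraries. Aorta estrus replicate 1 had 1669 FPKM of the smooth muscle myosin Myh11, against 191 to 316 in the other aorta libraries. The oviduct gene Ovgp1 reached 2554 FPKM in uterus estrus replicate 3 and 1563 in ovary estrus replicate 3, against 22.3 to 126 and 2.35 to 39.7 in the others of each tissue. WAT estrus replicate 1 had 356 FPKM of Myh11 against 10.7 to 33.2, and hypothalamus estrus replicate 2 had 21607 FPKM of the pituitary hormone Prl against 9.29 to 262. Every tissue held the markers of its own cells, such as Myh6 in heart, Ckm in muscle, Umod in kidney, Alb in liver, Ucp1 in BAT and Cd79a in spleen, with means of 4878, 14057, 1635, 48424, 4416 and 991 FPKM.

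Potassium channels let potassium ions leave the cell along their gradient, and so set the resting potential and end the action potential in neurons and muscle. In epithelia they recycle or secrete potassium beside pumps and cotransporters, and in vessels and lymphocytes they steer calcium entry by way of the membrane potential. Most channels are assemblies of several pore subunits, whose gating and location depend on auxiliary proteins such as the Kv beta subunits, the KCNE subunits and the Kv4-interacting proteins.

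The members were unevenly spread over the tissues. In cerebrum 72 members had a mean of at least 1 FPKM (76.6% against 63.4% of all genes), and in hypothalamus 71 did (75.5% against 65.6%). In each of the other 13 tissues the share of members at this level was below that of all genes, from 45 members in vein (47.9% against 64.9%) to 8 in liver (8.51% against 52.2%). A total of 39 members had their highest mean in cerebrum and 12 in hypothalamus, 51 together. Without the 6 libraries that stood apart the total was 53, and Kcnd3, Kcnk15, Kcnmb1, Kcnmb2 and Kcnrg had another leading tissue. The summed level of all members ranged from 51.1 ± 6.38 FPKM in liver (SD, n = 6) to 1462 ± 109 in cerebrum. Kidney, at 834 ± 54.6, and heart, at 622 ± 11.1, followed hypothalamus at 983 ± 31.5. Because the tissues are mixtures of cells, fewer cells of a type and less RNA per cell cannot be told apart in any of these values.

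**Figure D1:**
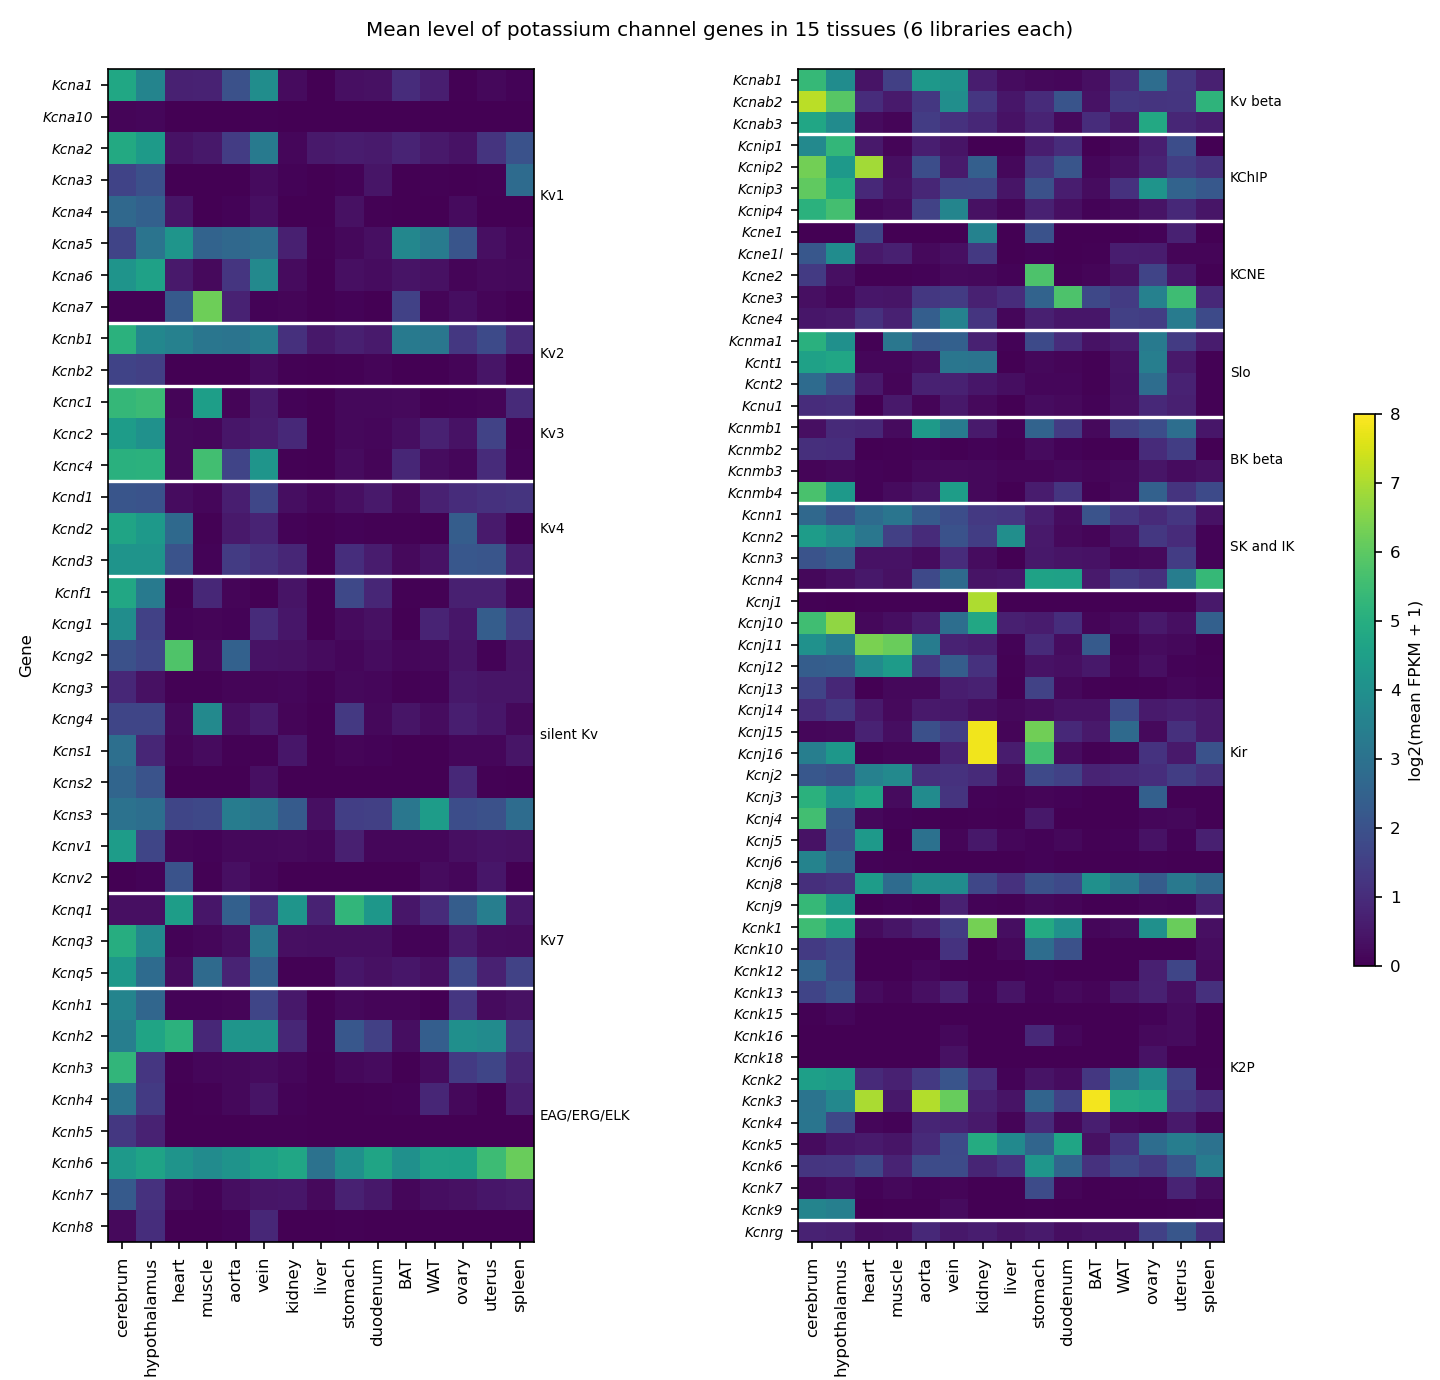
Colour gives the level, as log2(mean FPKM + 1), of each member reported here (rows, grouped by channel class) in 15 tissues (columns, means of 6 libraries). The columns of cerebrum and hypothalamus are filled in most classes, Kcnj1 is filled in kidney alone, and Kcnh6 is filled in every tissue.

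Of the members, 66 averaged 1 FPKM or more over the 90 libraries. Their median tissue specificity tau, an index on the log2(FPKM + 1) scale that is 0 for equal levels in all tissues and 1 for expression in a single tissue, was 0.764, against 0.397 over the 15226 genes at this level. Differences between tissues held 96.2% of the summed squares of these members and differences between the phases within tissues 0.866%, against 92.6% and 1.82% for all these genes. Kcnj1 had the highest tau of the 66 at 0.99, followed by Kcnj4 at 0.96. Kcnh6 had the lowest at 0.30, followed by Kcnj8 at 0.44.

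A RefSeq table of promoter windows, each of 300 bases around an annotated start in build GRCm38.p6, matched 69 of the 94 members by symbol and held 94 windows for them. Shown here are the windows of 3 members with nearly all their expression in 1 organ, Kcnj1 in kidney, Kcna7 in muscle and Kcnj4 in brain, and of Kcnh6, the most evenly expressed member. They were chosen after the levels were seen. Capitals mark matches, on either strand, to any of 8 motifs, which are spelled out after the windows, and matches that touch or overlap run together.
Kcnj1, chr9:32393735-32394034, + strand: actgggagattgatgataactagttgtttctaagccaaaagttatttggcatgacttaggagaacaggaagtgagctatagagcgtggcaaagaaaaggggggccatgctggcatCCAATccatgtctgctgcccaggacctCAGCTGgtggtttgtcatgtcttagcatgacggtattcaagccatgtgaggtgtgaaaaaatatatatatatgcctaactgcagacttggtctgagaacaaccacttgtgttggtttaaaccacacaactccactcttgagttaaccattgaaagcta
Kcna7, chr7:45405710-45406009, + strand: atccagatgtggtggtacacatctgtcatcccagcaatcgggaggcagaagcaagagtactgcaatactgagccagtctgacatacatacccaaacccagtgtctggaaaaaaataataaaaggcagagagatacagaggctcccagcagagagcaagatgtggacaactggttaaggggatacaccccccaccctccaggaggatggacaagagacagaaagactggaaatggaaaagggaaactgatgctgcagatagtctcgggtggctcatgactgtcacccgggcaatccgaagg
Kcnj4, chr15:79505192-79505491, - strand: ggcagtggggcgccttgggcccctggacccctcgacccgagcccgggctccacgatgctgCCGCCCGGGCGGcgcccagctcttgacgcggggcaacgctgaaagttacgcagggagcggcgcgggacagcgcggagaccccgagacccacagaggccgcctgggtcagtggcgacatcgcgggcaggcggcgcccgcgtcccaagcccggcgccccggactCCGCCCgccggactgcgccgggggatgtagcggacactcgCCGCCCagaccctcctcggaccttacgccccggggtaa
Kcnh6, chr11:106007898-106008197, + strand: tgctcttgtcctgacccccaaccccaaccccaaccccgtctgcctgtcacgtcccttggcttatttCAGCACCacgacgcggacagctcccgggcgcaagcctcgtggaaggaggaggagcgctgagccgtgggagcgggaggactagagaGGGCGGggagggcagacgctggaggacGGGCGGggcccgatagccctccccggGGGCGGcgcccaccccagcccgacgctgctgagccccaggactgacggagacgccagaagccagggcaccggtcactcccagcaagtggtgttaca
The windows of Kcnj4 and Kcnh6 held 41 and 24 CG dinucleotides, and those of Kcnj1 and Kcna7 held 2 and 4, against a median of 7 over all 32851 windows and of 9 over the windows of the members. The GC box GGGCGG was found in 47.9% of the members' windows and 35.7% of all windows, with 4 matches for Kcnj4 and 3 for Kcnh6. The E-box CAGCTG was found in 25.5% against 16.3%. CAGCACC, a part of the element bound by the repressor of neuronal genes, was found in 10.6% against 7.14%. The TATA box, searched as TATAAA, was found in 5.32% against 13.6%, and the CCAAT box in 30.9% against 37.4%. A GATA motif, searched as AGATAA, was found in 4.26% against 11.2%, and a part of the hepatocyte nuclear factor motif, searched as GTTAAT, in 4.26% against 7.1%. The palindromic estrogen response element, its 2 arms set 3 bases apart, was found in 0 of the 94 windows, against 0.07% of all windows. The window of Kcna7 held none of the 8 motifs.

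The inward rectifiers, 15 genes that pass potassium more readily into the cell than out of it, held the kidney and glial channels. Kcnj1, through which the thick ascending limb and collecting duct of the kidney secrete potassium into the urine, ranged from 116 to 139 (median 126) FPKM over the 6 kidney libraries. No library of another tissue exceeded 0.58 FPKM. Slc12a1, the cotransporter of the thick ascending limb that depends on this channel, had a mean of 359 ± 70.3 FPKM in kidney. Kcnj15, a rectifier of epithelia, ranged from 191 to 276 (median 217) in kidney and from 51.4 to 93.7 (median 82.3) in stomach, and its next highest mean was 5.87 in WAT. Kcnj16, which joins Kcnj10 or Kcnj15 and makes the channel sensitive to pH, ranged from 188 to 252 (median 225) in kidney and from 18.2 to 76.5 (median 44.7) in stomach. Kcnj10, the main inward rectifier of astrocytes, was highest in hypothalamus, from 92.3 to 109.7 (median 99.7), and ranged from 30.5 to 59.5 (median 46.4) in cerebrum and from 20.7 to 34.2 (median 26) in kidney. The hypothalamus values of Kcnj10 lay above those of all other tissues, whereas cerebrum and kidney overlapped.

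**Figure D2:**
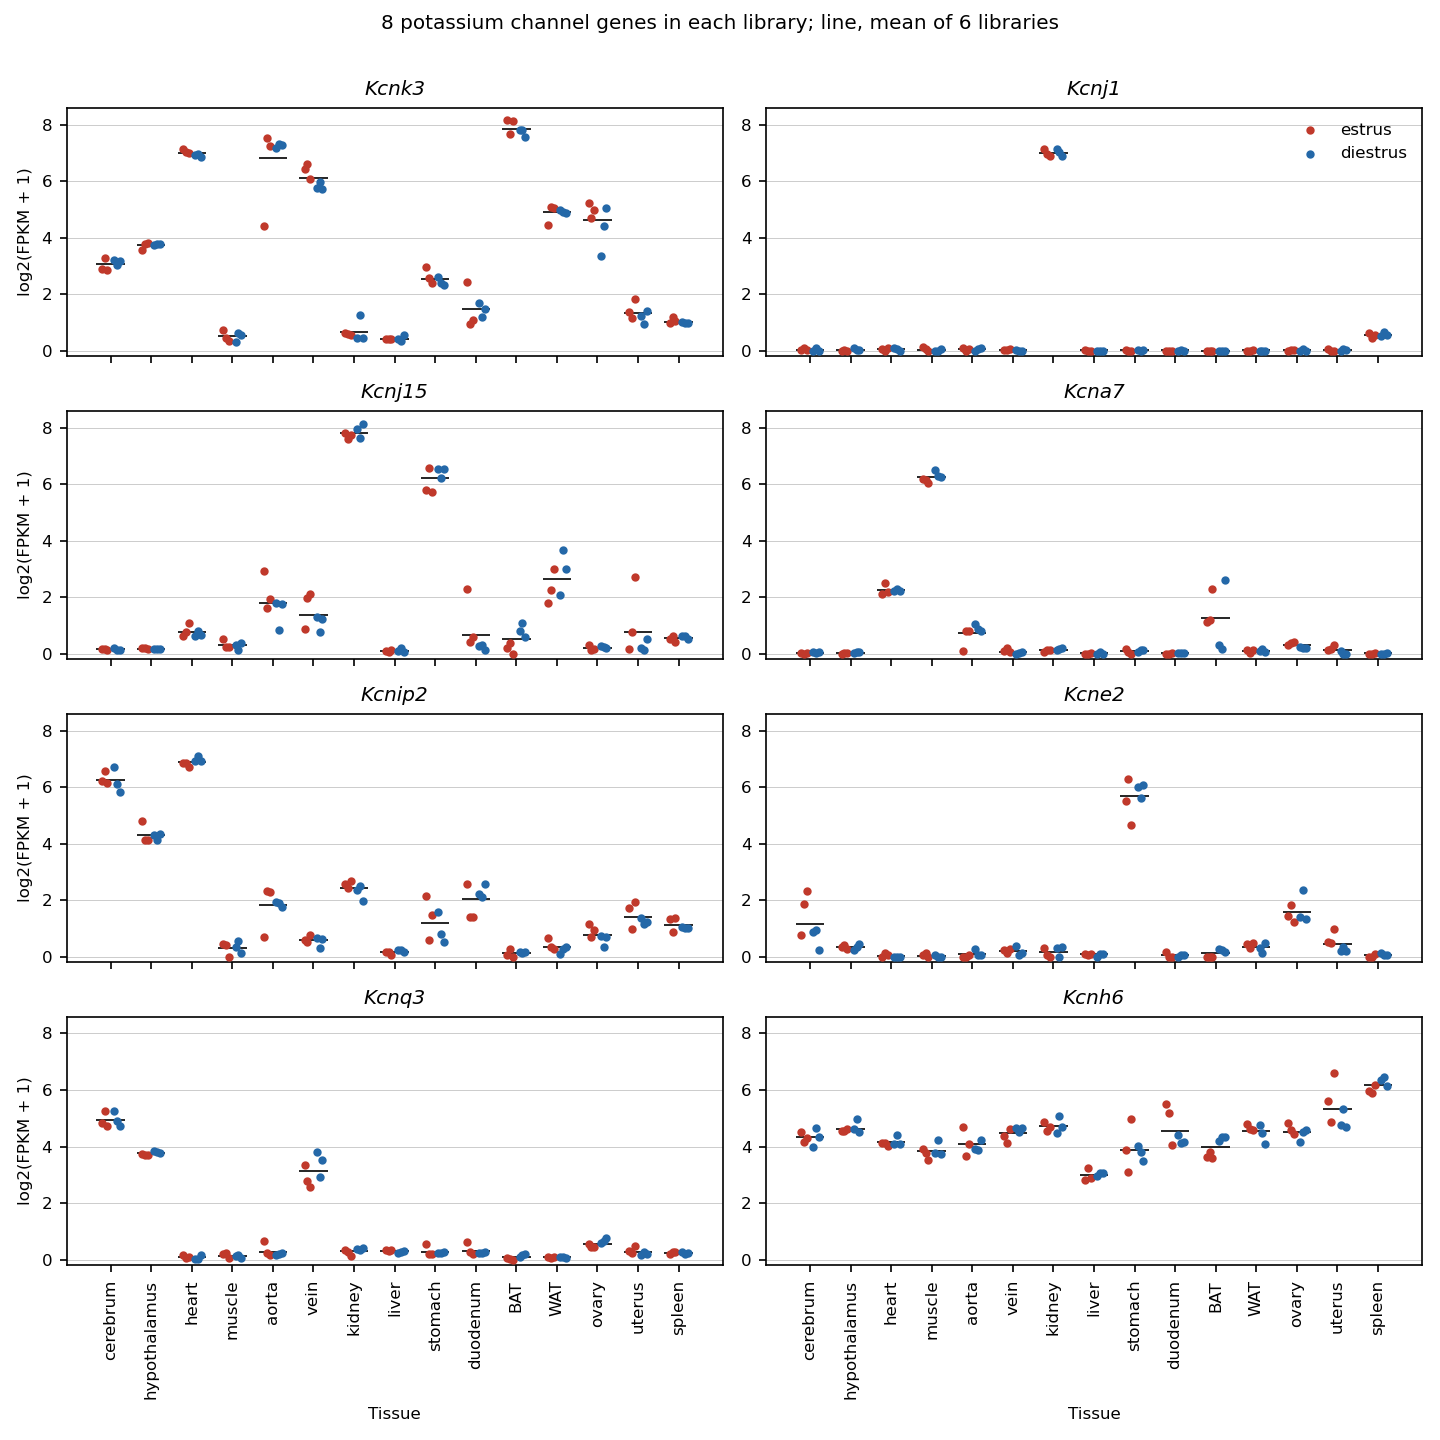
Each point is 1 library, plotted as log2(FPKM + 1) for 8 members in 15 tissues, with estrus and diestrus in different colours and a line at the mean of the 6 plotted values. Kcnj1, Kcna7 and Kcne2 are high in kidney, muscle and stomach respectively, Kcnk3 is highest in BAT and has 1 low aorta library, and Kcnh6 is expressed in all 15 tissues.

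The ATP-sensitive pore Kcnj11 and the classical rectifiers of muscle were highest in heart and skeletal muscle. Kcnj11, the pore of the ATP-sensitive channel of cardiomyocytes, skeletal muscle and pancreatic beta cells, ranged from 75.5 to 87.9 (median 82.2) FPKM in heart and from 63.1 to 79.3 (median 73.2) in muscle, and these ranges overlap. Kcnj8, the pore of the vascular form, had a mean of at least 1 FPKM in all 15 tissues and was highest in heart at 20.3 ± 1.37 (n = 6). Its means were 14.3 ± 2.51 in aorta and 5.98 ± 1.98 in muscle. Abcc9, the sulfonylurea receptor subunit of heart and vessels, was at 75 ± 7.91 in heart and 42.4 ± 2.03 in muscle. Over the 15 tissue means of log2(FPKM + 1), Spearman's rho was 0.84 for Kcnj8 and Abcc9, 0.16 for Kcnj11 and Abcc9, and 0.92 for Kcnj11 and Abcc8, the receptor of beta cells and neurons. These likenesses, and those given further on, describe 15 means that share their libraries and depth. Kcnj2 and Kcnj12, which hold the resting potential of muscle cells, had means of 12.6 ± 3.44 and 19.8 ± 2.71 FPKM in muscle, and 10.5 ± 1.72 and 13.4 ± 1.79 in heart.

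The subunits of the G protein-gated rectifiers divided between heart and brain. Kcnj3, a subunit of both the atrial and the neuronal channel, ranged from 30 to 36.4 (median 33.7) FPKM in cerebrum and from 20.5 to 34.2 (median 23.1) in heart. Kcnj5, its partner in the atrium, ranged from 15.9 to 23.4 (median 18.2) in heart and from 0.16 to 0.39 in cerebrum. Kcnj6 and Kcnj9, neuronal subunits, had means of 11 ± 1.61 and 40.1 ± 4.06 in cerebrum. Kcnj4, a rectifier of forebrain neurons, ranged from 36.9 to 57.3 (median 46.4) in cerebrum, and no library of another tissue exceeded 5.1. The Kcnj4 window printed above was the richest in CG dinucleotides of the 4.

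Voltage-gated pore subunits were highest in brain in most classes, with exceptions in muscle and heart. Kcnq3, a subunit of the channel of the M-current that limits repeated firing, had means of 30.3 ± 5.33 FPKM in cerebrum, 12.5 ± 0.576 in hypothalamus and 8.29 ± 3.07 in vein. It had no mean of 1 FPKM in any other tissue. Kcna7, a member of the Kv1 class, ranged from 64 to 89.9 (median 73.3) in muscle, and the highest value elsewhere was 5.02, in a BAT library. Kcnc4, which deactivates fast, ranged from 34.8 to 60.4 (median 45.6) in muscle, and its mean in heart was 0.138 ± 0.0601. The electrically silent subunits Kcng2 and Kcng4, which modify the channels of the Kv2 class, were highest in heart, from 52.4 to 56 (median 54.6), and in muscle, from 9.49 to 17.1 (median 12.3). Neither range overlapped with that of any other tissue.

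The delayed rectifiers of the heart were shared with other organs. Kcnh2, the pore of the rapid delayed rectifier that repolarises the ventricle, had means of 34.2 ± 6.59 FPKM in heart and 24.5 ± 0.421 in hypothalamus. Kcnq1, the pore of the slow delayed rectifier and of several epithelial channels, was highest in stomach at 37.5 ± 15.5, followed by heart at 21 ± 1.45, duodenum at 17.9 ± 10.7 and kidney at 17.2 ± 3.36, and the ranges of these 4 tissues overlap. Kcnh3, a channel of cortical and hippocampal neurons, ranged from 30.1 to 47 (median 36.3) in cerebrum. Kcnh6, a close relative of Kcnh2, had its highest mean in spleen, from 58.5 to 87 (median 70.4), and its lowest in liver at 7.07 ± 0.887. Its uterus range of 24.6 to 96.5 overlapped with that of spleen only through estrus replicate 3, which stood apart. Uterus libraries other than that one ranged from 24.6 to 48.4. Kcna3, the main voltage-gated channel of T lymphocytes, was highest in spleen, from 3.98 to 7.75 (median 6.02).

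The auxiliary subunits each had their own organs. Kcnip2, needed for the transient outward current of cardiomyocytes, ranged from 103 to 135 (median 117) FPKM in heart, from 56.1 to 104 (median 71.1) in cerebrum and from 0 to 0.45 in muscle. Kcne2, the partner of Kcnq1 in the acid-secreting parietal cell, ranged from 24 to 76.1 (median 55.3) in stomach, and no other library exceeded 4.11. Its tissue means had Pearson's r of 0.89 with those of Atp4a, the proton pump of the same cell, and of 0.09 over the 14 tissues without stomach. The lowest stomach value of Kcne2 was in estrus replicate 3, where Atp4a was at 371 FPKM against 1004 to 2058 in the others. Kcne3, the partner of Kcnq1 in intestinal crypts, ranged from 9.6 to 83.6 (median 55.9) in duodenum and from 3 to 209.9 (median 14.5) in uterus. Kcne1, the partner of Kcnq1 in the heart, was highest in kidney, from 6.36 to 13.3 (median 11.3), had a mean of 2.22 ± 1.05 in heart and was listed at 0 in all 6 duodenum libraries. Kcnab2, which helps to bring Kv1 channels to the axon, was the member with the highest mean in cerebrum at 145 ± 23.8, and Kcnab3, another Kv beta subunit, the one in ovary at 27.7 ± 6.62. Kcnab2 overlaps Nphp4 in the annotation, and since the strand setting of the counting is not given in the sources used here, reads of such neighbours cannot be told apart for it or for 10 other members with an overlapping gene.

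The calcium-activated channels link the membrane potential to calcium inside the cell. Kcnma1, the large-conductance pore, ranged from 30.6 to 35.9 (median 32.8) FPKM in cerebrum. Its neuronal beta subunit Kcnmb4 ranged from 45.1 to 55.3 (median 53.7) in cerebrum and from 12.2 to 30.2 (median 21.2) in vein. Kcnmb1, the beta subunit of smooth muscle, was at 70.8 FPKM in aorta estrus replicate 1 and at 7.29 to 13.8 in the other aorta libraries. Without that replicate its aorta mean was 9.09 ± 2.74 (n = 5), beside 9.13 ± 3.31 in vein. Kcnn4, the intermediate-conductance channel of blood cells and epithelia, was highest in spleen, from 33.9 to 48 (median 38.5). Kcnn2, a small-conductance channel, was the member with the highest mean in liver, from 12.7 to 16.2 (median 14.4).

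Among the 14 leak channels of the K2P class, Kcnk3 had the highest mean of any member in any tissue. Kcnk3, an acid-sensitive channel that keeps the resting potential negative, ranged from 188 to 287 (median 221) FPKM in BAT, from 20.2 to 181 (median 152) in aorta and from 114 to 138 (median 126) in heart. The lowest aorta value was that of estrus replicate 1, without which the aorta mean was 157 ± 14.1 (n = 5). The heart gene Myh6 and the brown fat gene Ucp1 were also lowest in that replicate among the aorta libraries, as given further on. Their part in the aorta values of Kcnk3 was not tested. BAT lay above every other tissue, whereas aorta and heart overlapped. Kcnk1, a weakly conducting leak channel of epithelia and brain, ranged from 64.1 to 105 (median 72.1) in kidney and from 43.3 to 100.4 (median 73.3) in uterus, and these overlap. Kcnk5, an alkaline-activated channel of the proximal tubule, had means of 29.3 ± 6.47 in kidney, 25.3 ± 9.3 in duodenum and 12.9 ± 5.81 in liver. Kcnk2 and Kcnk9, the first opened by stretch and the second closed by acid, were highest in cerebrum at 21.8 ± 6.17 and 11.3 ± 1.45, close to 20.1 ± 0.984 and 10.1 ± 1.35 in hypothalamus.

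Tissues of like kind were then compared in 7 pairs with limma on log2(FPKM + 1), 12 libraries each, and genes counted as called had an adjusted p of at most 0.05 and a log2 fold change no smaller than 1 in size. Of 73 members tested between hypothalamus and cerebrum, 6 were called higher in hypothalamus, where 4.73% of all genes were, and 21 higher in cerebrum, where 4.25% of all genes were. With each library centred on its median the counts were 5 and 24, against 3.64% and 5.14% of all genes. Kcnh3 ranged from 0.69 to 3.02 (median 1.19) FPKM in hypothalamus and from 30.1 to 47 (median 36.3) in cerebrum, a log2 fold change of -4.04 (SE 0.18, adjusted p = 1.51e-09). Kcnj4 followed with -3.34 (SE 0.13, adjusted p = 4.76e-10). For neither did the libraries of the tissues overlap, and the silent subunits Kcnv1 and Kcng1 were next, at -2.72 and -2.30. Of the 6 genes higher in hypothalamus, Kcne1l, a KCNE subunit, had the largest difference, 1.76 (SE 0.10, adjusted p = 1.71e-08), from 12.6 to 15.4 (median 13.8) FPKM in hypothalamus and from 2.38 to 4.56 (median 3.17) in cerebrum. The others were Kcnj5 at 1.65, Kcna5 at 1.58, Kcnip1 at 1.54, Kcnh2 at 1.25 and Kcnj10 at 1.13. The neuronal markers Snap25, Syt1, Rbfox3 and Map2 summed to 1032 to 1162 FPKM in hypothalamus and 1707 to 2304 in cerebrum, and the astrocyte markers Gfap and Aqp4 to 102 to 165 and 56.5 to 131, and their part in these differences was not tested.

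Between heart and muscle, 14 of 31 members were called higher in heart (22.7% of all genes) and 8 higher in muscle (5.56%). The median log2 fold change of all genes was 0.46 in favour of heart, and with each library centred on its median 10.1% and 10.4% of all genes and 14 and 10 members were called in these directions. Kcnip2 had the largest difference, 6.57 (SE 0.09, adjusted p = 1.53e-15), followed by Kcnk3 with 6.48 (SE 0.07, adjusted p = 3.13e-16) and Kcng2 with 5.60. Kcnk3 ranged from 114 to 138 (median 126) FPKM in heart and from 0.24 to 0.66 (median 0.425) in muscle. The genes of the atrial channel, Kcnj3 and Kcnj5, were higher in heart by 4.41 and 4.27 on the log2 scale, and the delayed rectifiers Kcnh2 and Kcnq1 by 4.23 and 3.96. In the other direction Kcnc4 had -5.38 (SE 0.09, adjusted p = 1.54e-14), and Kcnc1, Kcna7 and Kcng4 had -4.37, -3.98 and -3.57. The 4 largest differences in each direction showed no overlap between the tissues. Kcnj11 was not called, with 0.20 (SE 0.05, adjusted p = 0.00239).

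In aorta and vein, 6 of 47 members were called higher in aorta (1.84% of all genes) and 17 higher in vein (9.12%). Without aorta estrus replicate 1 the counts were 7 and 18 (3.53% and 10.1% of all genes). With centred libraries they were 6 and 13, against 2.97% and 7.27% of all genes. The largest differences belonged to genes known from neurons. Kcnmb4 ranged from 0 to 1.29 (median 0.2) FPKM in aorta and from 12.2 to 30.2 (median 21.2) in vein, with -4.02 (SE 0.24, adjusted p = 2.02e-07), and Kcnq3 and the sodium-activated Kcnt1 had -2.88 and -2.79. In vein 3 of 4 neuronal markers had a mean of at least 1 FPKM, namely Snap25 at 175, Syt1 at 81.1 and Map2 at 13.6, and their sum was 169 to 326 in estrus and 230.3 to 366 in diestrus. Rbfox3 was at 0.285. In aorta 0 of 4 neuronal markers reached that level, and the part of nerve tissue in these differences was not tested.

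The 6 genes higher in aorta each had a still higher mean in heart. Kcnj5 ranged from 0.23 to 11.8 (median 7.71) FPKM in aorta and from 0.03 to 0.12 (median 0.085) in vein, with 2.53 (SE 0.49, adjusted p = 0.00219). Kcnj11, Kcnj3 and Kcng2 had 2.47, 2.37 and 1.90, and Kcnip2 and Kcnq1 1.25 and 1.16. Cardiomyocyte markers were present in aorta, 4 of 4 with a mean of at least 1 FPKM, with a sum of 223 to 2564 in estrus and 1146 to 1812 in diestrus and Myh6 at 448 FPKM against 0.698 in vein. Brown adipocyte markers were present in both vessels, with Ucp1 at 1809 in aorta and 395 in vein, and the part of either cell type in these differences was not tested. Kcnk3 was not called between the vessels, with 0.73 (SE 0.48, adjusted p = 0.305), nor was Kcnmb1, with 0.50 (SE 0.50, adjusted p = 0.519). All folds given for this pair include aorta estrus replicate 1, where Kcnk3 was at 20.2 FPKM against 145 to 181 in the other aorta libraries. Kcnmb1 was at 70.8 FPKM there against 7.29 to 13.8. No fold without this replicate is given here, so Kcnk3 and Kcnmb1 are not compared for the other aorta libraries alone.

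Of 43 members tested between uterus and ovary, 6 were called higher in uterus (8.66% of all genes) and 14 higher in ovary (10.4%). Kcnab3 had the largest difference, -3.96 (SE 0.18, adjusted p = 1.15e-08), from 0.5 to 1.22 (median 0.76) FPKM in uterus and from 17.3 to 36.2 (median 27.4) in ovary. Kcnk3, Kcnt1 and Kcnk2 were also higher in ovary, with -3.31, -2.81 and -2.64. Of the genes higher in uterus, Kcnk1 had 2.19 (SE 0.28, adjusted p = 6.33e-05). Kcnk1 ranged from 43.3 to 100.4 (median 73.3) FPKM in uterus and from 9.01 to 28.6 (median 13.1) in ovary, with no overlap. Kcnn4 and Kcng1 had 2.17 and 1.78. The folds of this pair include estrus replicate 3 of uterus and of ovary, which stood apart, and no fold without them is given here.

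The KCNE partners of Kcnq1 told stomach and duodenum apart. Of 27 members, 10 were called higher in stomach (12% of all genes) and 3 higher in duodenum (12.1%). Kcne2 had 5.63 (SE 0.23, adjusted p = 3.68e-09), and Kcnj15 and Kcnj16 had 5.55 (SE 0.34, adjusted p = 1.41e-07) and 5.22. Kcne1 was higher in stomach by 1.97. Kcne3 had -3.08 (SE 0.37, adjusted p = 3.43e-05) and was higher in each duodenum library than in any stomach library. Kcnk5 had -2.05 and Kcnab2 -1.06. Kcnab2 was no longer called without duodenum estrus replicate 1 (-0.88), stomach estrus replicate 2 (-0.98) or stomach estrus replicate 3, where it fell just short of 1 in size. The pore Kcnq1 was itself higher in stomach, by 1.13. The proton pump genes Atp4a and Atp4b, at 1211 ± 578 and 2585 ± 1195 FPKM in stomach, were among the 3 of 13 partner genes called higher there.

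Most members tested were higher in kidney than in liver. Of 18 members, 14 were called higher in kidney (35.8% of all genes) and 1, Kcnn2, higher in liver (8.28%). All genes had a median log2 fold change of 0.74 in favour of kidney, and with centred libraries 11 and 2 members and 14.1% and 14.7% of all genes were called. Kcnj15 had 7.70 (SE 0.08, adjusted p = 2.58e-17), Kcnj16 7.22, Kcnj1 6.99 and Kcnk1 6.01. Kcnn2 ranged from 1.34 to 2.21 (median 1.68) FPKM in kidney and from 12.7 to 16.2 (median 14.4) in liver, with -2.52 (SE 0.10, adjusted p = 2.06e-11) and no overlap. Of 10 partner genes tested, 7 were called higher in kidney, among them Slc12a1 and the sodium pump subunits Atp1b1 and Atp1b2.

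In the adipose tissues, 3 of 18 members were called higher in BAT (7.07% of all genes) and 6 higher in WAT (15.1%). With centred libraries the counts were 4 and 6, against 10.2% and 9.08% of all genes. Kcnk3 ranged from 188 to 287 (median 221) FPKM in BAT and from 20.6 to 33.3 (median 29.9) in WAT, with 2.96 (SE 0.14, adjusted p = 2.26e-08) and no overlap. Kcnj11 had 2.19 (SE 0.17, adjusted p = 1.12e-06). Kcna7 had 1.18 (SE 0.39, adjusted p = 0.0246), but without WAT estrus replicate 2 it was not called, at 1.13 (adjusted p = 0.0505). In BAT, Kcna7 ranged from 0.12 to 5.02 FPKM while 5 of 5 skeletal muscle markers were above 1, with sums of 843 to 1211 in estrus and 22.3 to 4617 in diestrus, and their part in this difference was not tested. Among the 6 genes higher in WAT were Kcnj15 at -2.12, Kcnh2 at -1.88, Kcnk2 at -1.87, the silent subunit Kcns3 at -1.60 and Kcnj14 at -1.36. Kcns3 ranged from 0 to 11.9 (median 9.63) FPKM in BAT and from 16.6 to 24.2 (median 21) in WAT. The BAT values of this pair include the shallow estrus replicate 3, which listed 84 members at 0, and no fold without it is given here.

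**Figure D3:**
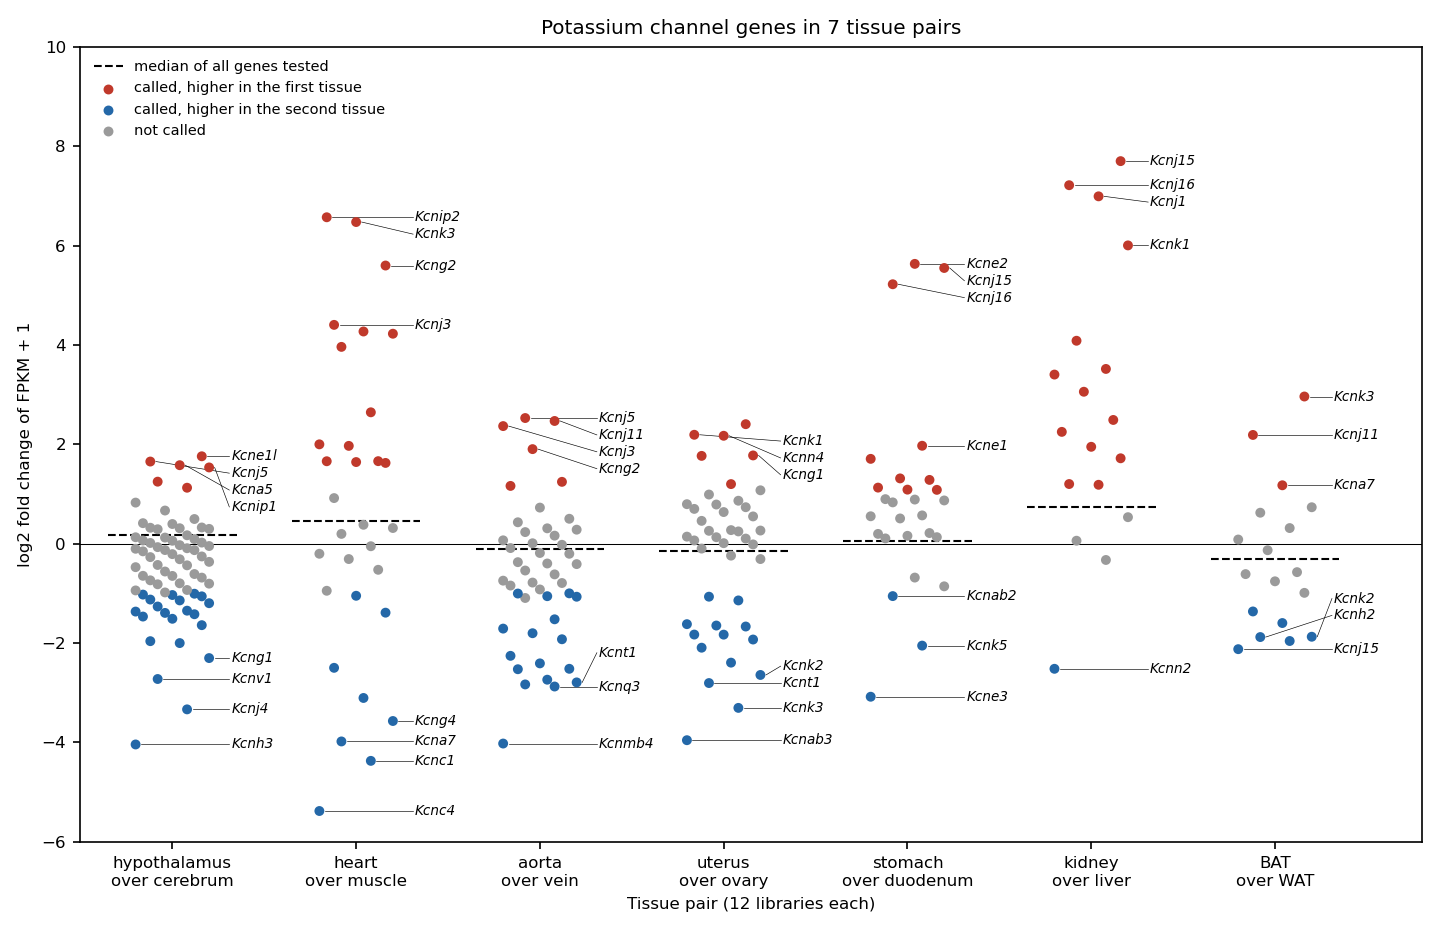
Each point is the log2 fold change of 1 member between the first and the second tissue of a pair, for 7 pairs with 12 libraries each, and the dashed line is the median of all genes in that pair. Most members lie below the line in hypothalamus over cerebrum and in aorta over vein, and in kidney over liver Kcnj15, Kcnj16, Kcnj1 and Kcnk1 lie above 6.

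Members differed together with cell type markers in the libraries that stood apart. In aorta estrus replicate 1, the library high in Myh11, Kcnmb1 was at 70.8 FPKM against 7.29 to 13.8 in the other 5, its pore Kcnma1 at 14.3 against 1.14 to 2.21, and Kcnab1, a Kv beta subunit, at 76.4 against 4.42 to 9.06. In the same library Myh6 was at 37.3 FPKM against 277 to 717, Ucp1 at 205 against 1019 to 2896, Kcnk3 at 20.2 against 145 to 181 and Kcnj3 at 1.23 against 8.72 to 22.6. The smooth muscle channel genes and Myh11 were high together in this library, and Kcnk3 and Kcnj3 were low with Myh6 and Ucp1. In WAT estrus replicate 1, also high in Myh11, Kcnmb1 was at 9.16 against 0.15 to 0.85.

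Uterus estrus replicate 3 and ovary estrus replicate 3 were high in the same members. Kcne3 was at 209.9 FPKM in the uterus library against 3 to 24.5 in the others, and at 35.6 in the ovary library against 3.93 to 9.5. Kcnk12, a K2P subunit, was at 12.8 against 0 to 0.12 and at 3.31 against 0.03 to 0.17. Kcnrg and Kcnmb2 stood out likewise, at 16.5 and 9.64 in the uterus library and 7.59 and 4.33 in the ovary library. Foxj1, a gene of ciliated cells, was at 155 and 60.4 FPKM in these libraries, against 0.39 to 4.62 and 0.1 to 2.31 in the others. Without uterus estrus replicate 3 the uterus mean of Kcne3 was 12.1 ± 8.89 (n = 5) in place of 45.1 ± 81.2. The part of other cells in these values was not tested.

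**Figure D4:**
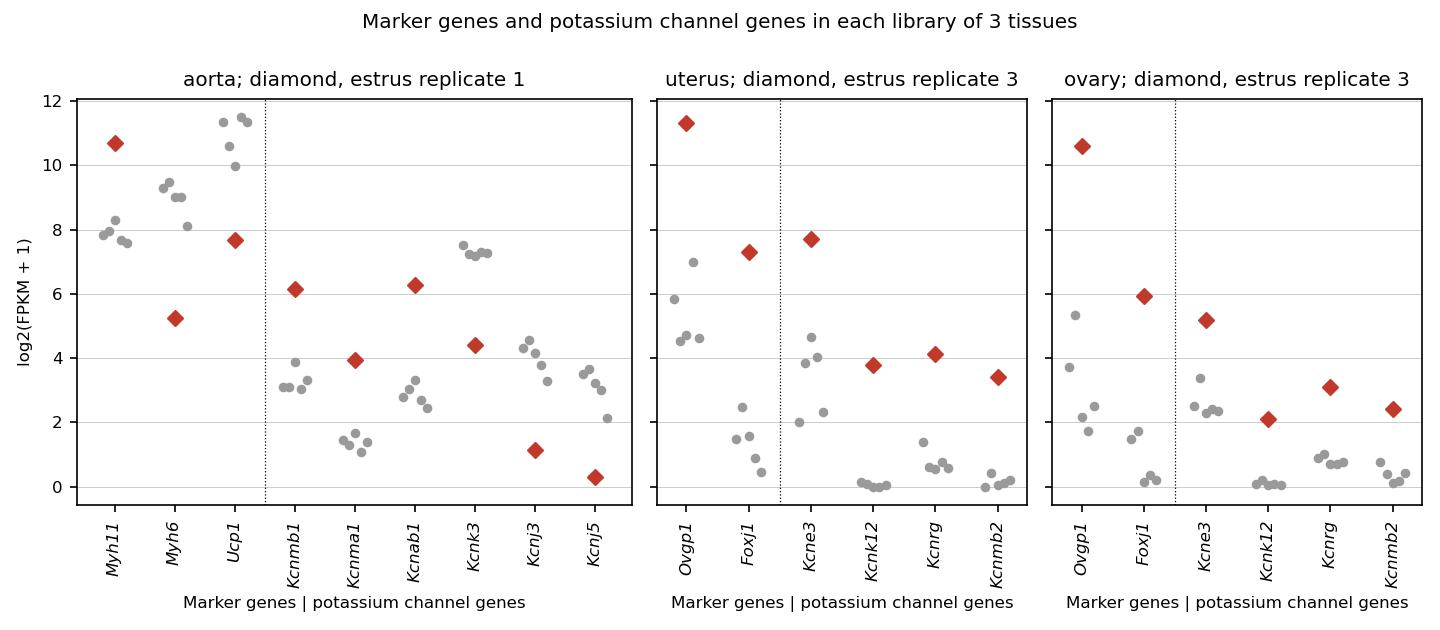
Each point is 1 library of aorta, uterus or ovary, plotted as log2(FPKM + 1) for marker genes and members, with diamonds for aorta estrus replicate 1, uterus estrus replicate 3 and ovary estrus replicate 3. In aorta the diamond is highest for Myh11 and Kcnmb1 and lowest for Myh6 and Kcnk3, and in uterus and ovary it is highest for Ovgp1, Kcne3 and Kcnk12.

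Between estrus and diestrus no member was called in any of the 15 tissues, by limma on the 6 libraries of a tissue. Of all genes, 0% were called in 13 tissues, 0.00936% in muscle and 0.00798% in spleen, which is 1 gene each. In all 88 members passed the filter of a mean of at least 1 FPKM in 1 tissue or more, which made 483 tests, and 6 members passed it in none. At an unadjusted p under 0.05 stood 44 of the 483 tests (9.11%, against 7.84% of all genes), 13 with a higher and 31 with a lower value in estrus. The split by direction has no counterpart over all genes here, so it is not read as a trait of the members. Without hypothalamus estrus replicate 2, 1 member was called in that tissue (0.0299% of all genes), Kcng4, at 4.46, 1.03 and 4.35 FPKM in the estrus libraries against 0.93, 1.26 and 1.01 in the diestrus libraries. In a single fit of all 90 libraries, which gives all tissues 1 common spread, 6 members were called in uterus (6.67% of all genes), 2 in stomach (2.97%), 2 in BAT (8.98%), 1 in vein (0.136%) and 1 in duodenum (4.38%). Without the 6 libraries that stood apart, such a fit of the other 84 libraries called 2 members in uterus, Kcnc2 and Kcnk2, and none in BAT, so that the calls of Kcnk12, Kcnmb2, Kcnrg and Kcnn4 in uterus were made only in the fit that held these 6 libraries, uterus estrus replicate 3 among them. In the fits of all 6 libraries of 1 tissue the smallest adjusted p of a member was 0.0974. With 3 libraries against 3 an exact permutation test of 1 gene cannot go below 0.1, so the following values are given as descriptions. No partner gene was called in 180 tests, and no member passed the test of a different phase difference in the tissues of a pair (smallest adjusted p 0.237).

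In total 59 of the 483 comparisons had no overlap between the 3 estrus and the 3 diestrus values (12.2%, against 15% of all genes). The counts were 12 of 71 members in hypothalamus (19.6% of all genes), 3 of 72 in cerebrum (7.8%), 6 of 27 in heart (11.7%), 8 of 19 in muscle (26.2%), 2 of 34 in aorta (11.9%) and 6 of 45 in vein (18.2%). In kidney 0 of 23 members did not overlap (7.98%), in liver 1 of 8 (11.3%), in stomach 6 of 28 (13.7%) and in duodenum 1 of 22 (26.6%). The remaining counts were 4 of 15 in BAT (30.1%), 2 of 21 in WAT (12%), 5 of 37 in ovary (13.7%), 1 of 37 in uterus (7.92%) and 2 of 24 in spleen (8.78%). In hypothalamus 11 of the 12 were lower in estrus, among them Kcnq3, Kcnq5 and Kcnk9, where 49.2% of all genes without overlap were lower. In stomach all 6 were lower in estrus, namely Kcne3, Kcnip3, Kcnk5, Kcnk6, Kcnk10 and Kcnn4, as were 88% of all genes without overlap.

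The members with the smallest p among these, with log2 fold changes no smaller than 0.5 in size, are given by tissue. In muscle, Kcnn2 was at 1.56, 1.33 and 1.2 FPKM in the estrus libraries against 2.34, 2.73 and 2.12 in the diestrus libraries (log2 fold change -0.52, SE 0.11, adjusted p = 0.0974). Kcnj8 in muscle was at 5.5, 3.87 and 3.77 FPKM in the estrus libraries against 8.68, 6.55 and 7.53 in the diestrus libraries (log2 fold change -0.68, SE 0.15, adjusted p = 0.101). Both were lower in every estrus library than in any diestrus library. Among those in muscle without overlap, 5 of 8 members and 83.7% of all genes were lower in estrus. In vein, Kcna2, a Kv1 channel of axons, was at 6.91, 4.76 and 5.58 FPKM in the estrus libraries against 14.7, 12.3 and 7.55 in the diestrus libraries (log2 fold change -0.86, SE 0.24, adjusted p = 0.412). Kcnk3 in vein was at 85.3, 96.2 and 65.7 FPKM in the estrus libraries against 53, 61.9 and 52.2 in the diestrus libraries (log2 fold change 0.54, SE 0.16, adjusted p = 0.412). The first was lower and the second higher in estrus. Neuronal markers in vein summed to 169 to 326 in estrus and 230.3 to 366 in diestrus. The brown adipocyte marker Ucp1 had a mean of 395 FPKM over both phases of vein and is not given by phase. The part of either cell type in these values was not tested. In stomach, Kcnk6, a leak channel of epithelia, was at 11, 14.8 and 12.1 FPKM in the estrus libraries against 18, 23.8 and 23.8 in the diestrus libraries (log2 fold change -0.74, SE 0.17, adjusted p = 0.671), and Kcnn4 was at 14.5, 21.8 and 16.4 FPKM in the estrus libraries against 24.2, 31.5 and 31 in the diestrus libraries. In heart, Kcne1 was at 1.73, 1.68 and 1.22 FPKM in the estrus libraries against 4.22, 2.17 and 2.28 in the diestrus libraries. These stomach and heart members were lower in estrus in 3 of 3 libraries, and without heart diestrus replicate 1 the log2 fold change of Kcne1 was -0.35 in place of -0.58.

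In aorta, Kcnh2 was at 31.6, 18.4 and 17 FPKM in the estrus libraries against 14.2, 11 and 9.94 in the diestrus libraries (log2 fold change 0.84, SE 0.27, adjusted p = 0.933), and Kcnd3, a pore of the transient outward current, at 4.05, 1.27 and 1.49 FPKM in the estrus libraries against 1.15, 0.75 and 0.92 in the diestrus libraries. Both were highest in estrus replicate 1, which stood apart, and without it their log2 fold changes were 0.57 in place of 0.84 and 0.30 in place of 0.66. In duodenum, Kcnab2 was at 6.74, 2.82 and 2.94 FPKM in the estrus libraries against 1.95, 2.56 and 2.57 in the diestrus libraries. Its log2 fold change was 0.55, and 0.21 without estrus replicate 1. In BAT, Kcnh6 was at 11.4, 12.9 and 11.2 FPKM in the estrus libraries against 17.3, 19.2 and 19.2 in the diestrus libraries, and Kcna5, a delayed rectifier, at 6.18, 10.6 and 8.84 FPKM in the estrus libraries against 17.5, 10.8 and 18.5 in the diestrus libraries, and the last estrus value of each is from the shallow replicate 3. In WAT, ovary and uterus, too, values turned on libraries that stood apart. Kcnmb1 in WAT was at 9.16, 0.64 and 0.85 FPKM in the estrus libraries against 0.26, 0.16 and 0.15 in the diestrus libraries, Kcne3 in ovary at 4.7, 9.5 and 35.6 FPKM in the estrus libraries against 3.93, 4.38 and 4.07 in the diestrus libraries and Kcnk12 in uterus at 0.12, 0.06 and 12.8 FPKM in the estrus libraries against 0, 0 and 0.03 in the diestrus libraries. Kcnrg in ovary, at 0.88, 1.04 and 7.59 FPKM in the estrus libraries against 0.62, 0.62 and 0.71 in the diestrus libraries, had its highest value in the same ovary library. Without ovary estrus replicate 3 the log2 fold change of Kcne3 was 0.59 in place of 1.34. Kcnmb1 without WAT estrus replicate 1, Kcnk12 without uterus estrus replicate 3 and Kcnrg without ovary estrus replicate 3 had means below 1 FPKM and were not fitted.

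Over the members tested, the median log2 fold change of estrus over diestrus was -0.35 in vein, where 7 of 45 were higher in estrus and the median of all genes was -0.10. In BAT it was -0.44 against -0.12, and -0.23 without estrus replicate 3. In uterus it was 0.30 against -0.07, and 0.10 without estrus replicate 3, in WAT 0.22 against 0.06, and 0.04 without estrus replicate 1, and in ovary 0.17 against 0.01, and 0.01 without estrus replicate 3. In stomach it was -0.18 against -0.02, and in the other 9 tissues it lay between -0.16 and 0.06. These medians carry no test. For the 7 of 45 members higher in estrus in vein, no share of all genes is given. Among those in vein without overlap between the phases, 5 of 6 members and 70.9% of all genes were lower in estrus.

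**Figure D5:**
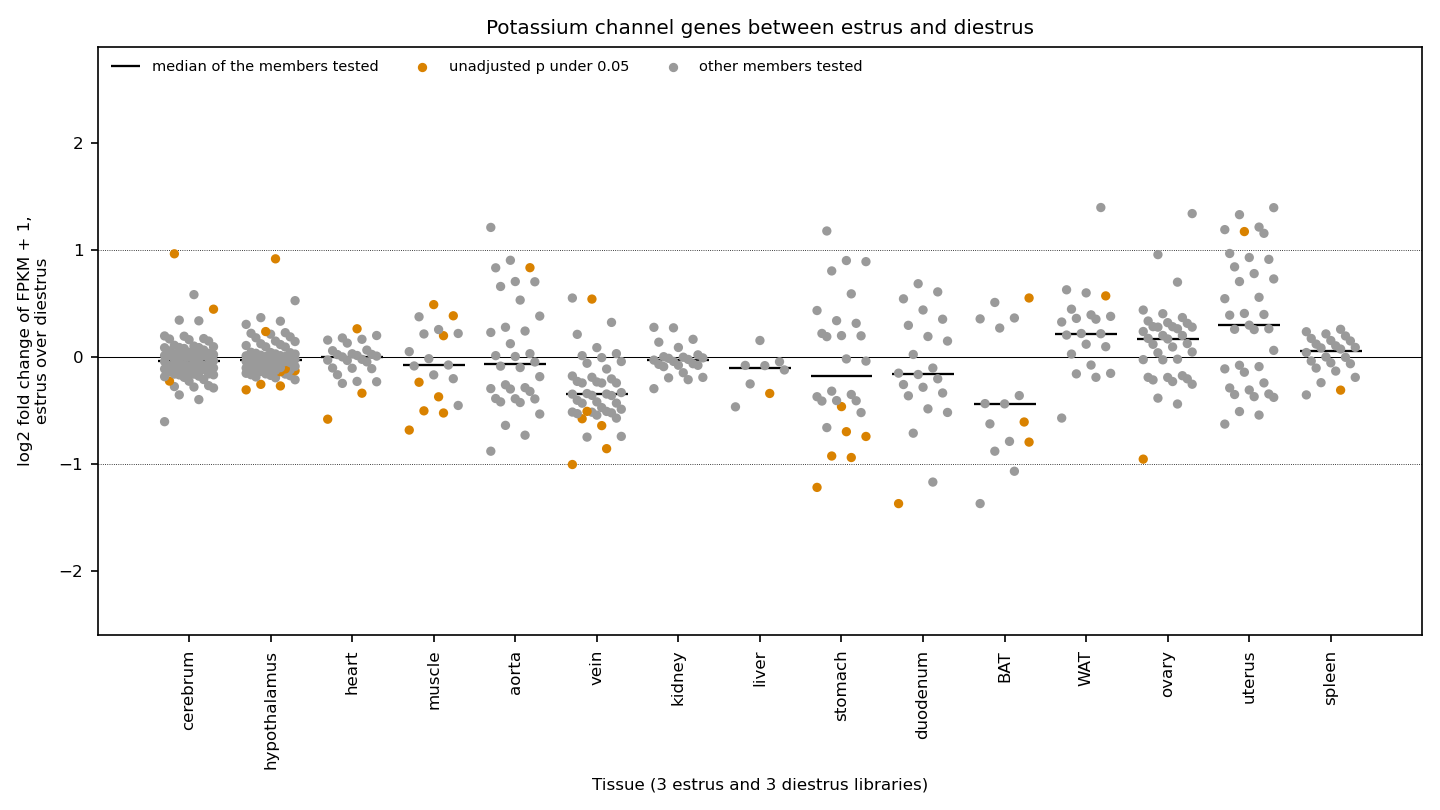
Each point is the log2 fold change of estrus over diestrus of 1 member that passed the filter, by tissue (3 against 3 libraries), with points at an unadjusted p under 0.05 in orange. Most points lie near 0, the vein points lie mostly below it, and the 2 largest uterus values belong to Kcnrg and Kcnk12, which are high in estrus replicate 3.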

How the data were processed

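RNA of 15 tissues from mice in estrus or diestrus was sequenced on BGISEQ-500, 3 libraries per tissue and phase. The authors filtered reads with SOAPnuke, aligned them with Bowtie2 2.2.5 to GRCm38.p5 and quantified 20414 Entrez genes with RSEM 1.2.8, and deposited 1 value per gene and library. These deposited values were read as FPKM from their scale and smallest steps, since the table names no unit, and read totals were approximated from 931 short genes with 1 transcript. FPKM hold no counts, so depth limits low values in an unknown measure, above all in BAT estrus replicate 3.

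Groups were taken from the labels and symbols from RefSeq. Genes that averaged 1 FPKM or more in the libraries of a fit were tested as log2(FPKM + 1) with limma 3.58.1 (R 4.3.3, intensity trend), Benjamini-Hochberg adjusted over all genes tested, and fold changes are on this scale, which understates those of low genes. The limits on fold change and adjusted p are those of the study, whose own count test needs counts. Each tissue was fitted alone for phase, and each pair of tissues with phase as a covariate. Interactions of tissue and phase were tested in the same pairs. All p-values measure the spread between these libraries. Fits were also run on simulated data with known changes, and their recovery is not reported here. Tables and figures were made with Python 3.11.15, pandas 2.3.3 and matplotlib 3.10.9.

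Named genes were the 3 highest members of each tissue, up to 4 called members per direction and pair with the largest fold change, up to 2 members per tissue with the smallest p among those whose phases did not overlap and whose log2 fold change was at least 0.5 in size, members and partners with a known role, and every member of a count of 5 or fewer. Some other members were named after their values were seen, among them Kcnh6 beyond its rank, Kcng4 in hypothalamus and the genes that moved in libraries that stood apart. Some genes are not reported here, by name in the text or in the figures, and counts include them. The members, gene lists and tests were chosen with earlier results of these data known. Replicate numbers are shared between groups. The differences given above come from fits without a term for these numbers, kidney over liver included, and a replicate block was an alternative setting. Each correlation of the deviations of same-numbered libraries was above 0.1 in kidney and liver (0.111 to 0.276) and in no other comparison. In uterus and ovary (0.0664 to 0.292), in hypothalamus and cerebrum (0.0187 to 0.221) and between the phases of muscle and of aorta all were positive, but not all above 0.1. In kidney and liver the replicate block left 14 and 1 members called.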

Additional observations from a re-analysis of the deposited data

How the results depend on the processing

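Over 458 alternatives of the counts and shares, 440 stayed within the limits set for a change, 16 moved past them towards more calls, 2 moved otherwise, and none reversed. Without hypothalamus estrus replicate 2 there was 1 member called between the phases in hypothalamus, so that the counts without 1 library ranged there from 0 to 1. In 1 fit of all 90 libraries the members called between the phases were 1 in vein (Kcna1, 0.136% of all genes called), 2 in stomach (Kcnip3 and Kcnk7, 2.97%), 1 in duodenum (Kcnq1, 4.38%), 2 in BAT (Kcns3 among them, 8.98%) and 6 in uterus (Kcnc2, Kcnk12, Kcnk2, Kcnmb2, Kcnn4 and Kcnrg, 6.67%), in place of 0. Without the 6 libraries that stood apart, a setting chosen after seeing the data, such a fit called 1 member in hypothalamus (Kcng4, 0.0373% of all genes), 1 in vein (Kcna1, 0.453%), 2 in stomach (Kcnip3 and Kcnk7, 3.67%), 2 in duodenum (Kcne3 and Kcnq1, 4.84%) and 2 in uterus (Kcnc2 and Kcnk2, 3.65%). This fit kept duodenum estrus replicate 2, the shallowest of the other libraries at 6.62 M reads. In duodenum Kcne3 was at 61.3, 9.6 and 41.7 FPKM in estrus against 72.4, 83.6 and 50.5 in diestrus. Kcnq1 was at 6.77, 4.49 and 21.2 FPKM against 33.2, 21.6 and 20.2. For both genes the phases overlapped. With an adjusted p of at most 0.05 and no limit on the fold change, 16 members were higher in hypothalamus than in cerebrum (52.1% of all genes), 39 higher in cerebrum (20.2%), 11 higher in uterus than in ovary (14.1%) and 2 higher in liver than in kidney (14.1%). With libraries centred on their median 2 members were higher in liver. A pseudocount of 0.1 gave a median tau of 0.646 and 1.18% of the summed squares between phases. The cause of these changes was not tested, apart from the wider limits that the settings themselves set. Of 51 named differences between tissues, 2 lost their call in 4 of 863 alternatives, Kcnab2 in stomach against duodenum and Kcna7 in BAT against WAT. With the replicate block, 9 and 3 members were called in stomach and duodenum in place of 10 and 3, 14 and 1 in kidney and liver as before, and 0 between the phases in every tissue, so that the block changed no other count of members called. Tissues of a phase come from the same mice, but no label says that same-numbered libraries do, and outside kidney and liver their correlations were not all above 0.1. Depth is known only approximately, and values near 0 in BAT estrus replicate 3 carry the least information.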
